A study of Arabidopsis thaliana with 3 samples.

Results

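In the skip mutant of Arabidopsis thaliana under salt, 17 of 21 genes of the mitochondrial stress programme were at least 2-fold higher than in wild type under the same salt, against 2.16% of all genes compared. Lower by the same measure, against 4.65% of all genes, were 10 of 14 genes of starch breakdown and 4 of 16 genes of an evening clock list. Also lower were 5 of 22 genes of protective LEA and cold-regulated proteins. Of the jasmonate genes a minority was lower, among them the storage proteins VSP1 and VSP2. The starch list was put together after the values had been seen, so its count is no test against that share. The other lists were chosen with earlier results of these data known. The comparison covers nuclear genes with at least 5 FPKM (fragments scaled to transcript length and sequencing depth) in wild type or in skip. This rule kept 14853 of the 33557 gene identifiers in the tables. Among the 17 mitochondrial genes, AOX1D, NDB4 and AT5G09570 passed it only through their skip values. Genes of the chloroplast and mitochondrial genomes were left out by it.

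All plants were 11-day-old seedlings measured whole. Wild type was incubated in MS liquid medium, a standard plant culture medium, without added salt, and wild type and skip in that medium with 200 mM NaCl, each incubation lasting 4 h. The allele behind the genotype label skip and the accession of the wild type were not given in the sources used here. The 3 groups each have 1 value per gene in which 2 replicates were merged, so no value below has a replicate error and no difference was tested. Untreated skip plants were not analysed here, so a response to salt that differs in skip and a difference that skip seedlings carry without salt cannot be told apart. In whole seedlings, fewer cells of a type and less RNA per cell cannot be told apart either.

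SKIP (AT1G77180) is a protein of the spliceosome, the machine that removes introns, and also works with the Paf1 complex, which travels with RNA polymerase. In Arabidopsis it is known for roles in the circadian clock, in flowering time and in salt tolerance. Salt stress raises sodium in the tissue, withdraws water and disturbs respiration and photosynthesis, and plants answer with abscisic acid, protective proteins, ion transport and enzymes against oxidative damage. Each value is a total for the gene, so spliced and unspliced transcripts are not separated.

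SKIP itself stood at 49.0 FPKM in wild type and 41.6 in skip, a log2 ratio of -0.23. Without the allele, this level does not check the genotype. All ratios below are log2 ratios of FPKM + 1, skip over wild type, and folds are on that scale, which understates changes of low genes. A gene is called higher or lower where the fold is at least 2, which is a rule of size. The 9 reference genes stayed within that rule, from ACT8 at -0.64 to GAPC1 at 0.81. Their median was -0.02, and its sign changes with the scaling. Loci of the organelle genomes took 1.35% of the summed values in wild type and 4.66% in skip, and AT2G01021, a locus whose sequence is shared with another gene along its whole length, took 4.63% and 15.1%. The part of these shares in other genes' values was not tested beyond the rescaled alternatives. AT2G01021 counts as nuclear, so it stays in the nuclear sums used for rescaling, 726366 in wild type and 750347 in skip. Without its share the skip sum would be the smaller one, so a rescaling without it would shift ratios in the opposite direction. That rescaling was not run, and every remark below on rescaled columns depends on this locus. From the spacing of the low values, a 1 kb transcript at 5 FPKM rested on about 243 fragments in wild type and 185 in skip, an estimate that covers counting error only.

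Of the 14853 genes, 321 were higher in skip, 2.16% of those compared, and 690 were lower, 4.65%, so 1011 genes, 6.81%, were past the rule. At 4-fold, 55 genes (0.37%) were higher and 67 (0.451%) lower. The median log2 ratio over all genes was -0.08, with 5th and 95th percentiles of -0.97 and 0.68, and 58.1% of genes lay below 0. These shares and this median are the background for every gene group that follows. They take no account of exon number, and genes with 1 exon had lower ratios as a class, as described below. A gene below 5 FPKM in wild type entered through its skip value, so it could not be counted as lower. The reverse holds for a gene below 5 FPKM in skip. Both limits apply to every such gene below, also where they are not repeated. Sequence shared with another gene over at least 20% of the transcript was present in 7.50% of all members, in 11.6% of the higher genes and in 10.5% of the lower ones. For such genes the value may hold reads of another locus, and the share is given where one is described.

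**Figure D1:**
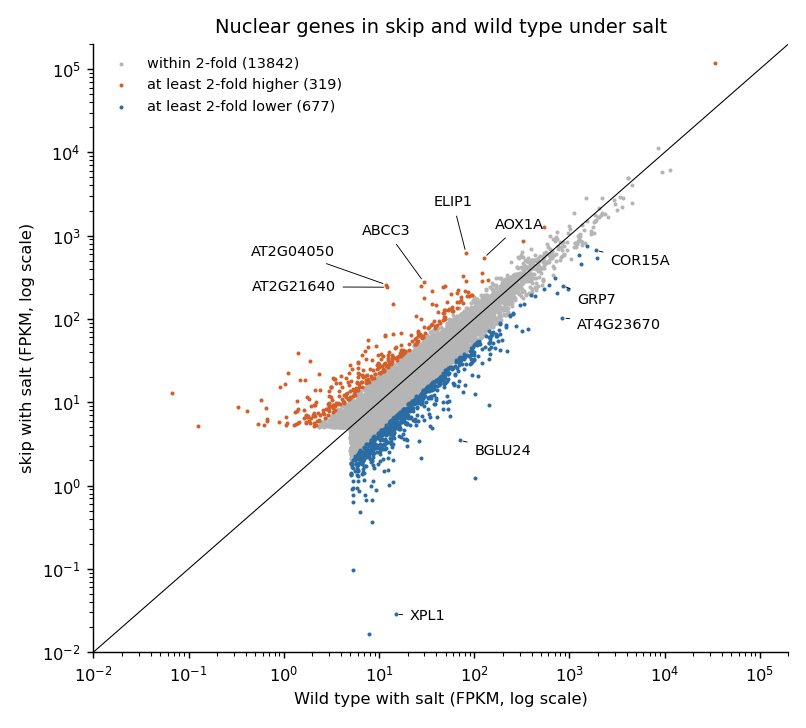
Each point is a nuclear gene, with its FPKM in wild type under salt on the horizontal axis and in skip under salt on the vertical axis, both log scales, and the line marks equal values. Orange points are at least 2-fold higher in skip (319) and blue points at least 2-fold lower (677), while 15 further genes listed at 0 in a column cannot be drawn, and AT2G04050, AT2G21640, ABCC3 and ELIP1 stand far above the line and BGLU24 and XPL1 far below it.

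Of the lists used here, the mitochondrial stress regulon had the highest median ratio. When respiration fails, plant mitochondria signal to the nucleus, and membrane-bound NAC factors such as ANAC013 and ANAC017 are released and switch on genes for alternative respiration and detoxification. Of 22 listed genes, 21 were members, and 17 were higher in skip and 0 lower, against 2.16% and 4.65% of all genes. AOX1D, NDB4 and AT5G09570 are members only through their skip values, so they could not have been counted as lower. Their median log2 ratio was 2.09. AOX1A, the main alternative oxidase, which passes electrons to oxygen without pumping protons, stood at 127 FPKM in wild type and 543 in skip. Its fold was 4.25, and its log2 ratio of salt over no salt in wild type, which uses the same salt-treated wild type plants, was 2.0. AOX1D, a second alternative oxidase, stood at 2.36 in wild type and 22.0 in skip, 6.84-fold higher. NDB4, an alternative NADH dehydrogenase of the inner membrane, stood at 0.646 and 8.51 FPKM, a log2 ratio of 2.53. Both bypass routes of the respiratory chain thus had genes with the higher value in skip, yet NDA2, another alternative NADH dehydrogenase, was within the rule at 12.7 and 10.7 FPKM.

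Among the regulators, ANAC013 stood at 24.6 FPKM in wild type and 107 in skip, 4.23-fold higher. ANAC017, which acts upstream and is held in the endoplasmic reticulum membrane as a protein, was within the rule at 20.9 and 35.6 FPKM. The largest ratio of the whole comparison among genes above 0 in both columns was that of AT2G04050, annotated as a MATE efflux carrier, with 11.9 FPKM in wild type and 258 in skip, 20.03-fold higher. AT2G21640, annotated as a marker of the oxidative stress response, stood at 12.2 and 240.4 FPKM, 18.3-fold higher. AT5G51440, annotated as a small heat shock protein of the HSP20 type, stood at 13.9 and 149.6 FPKM, 10.11-fold higher. In all 3 the skip value was at least 10.11-fold above the wild type value, and salt over no salt in wild type had given log2 ratios of 2.2, 0.79 and 0.96.

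AT5G09570, annotated as a protein of the Cox19 type with CHCH domains, stood at 0.904 FPKM in wild type and 15.4 in skip. AT2G41730, annotated as a protein with a calcium-binding site, stood at 36.2 and 214 FPKM, a log2 ratio of 2.53. BCS1, a mitochondrial AAA-type ATPase, was just past the rule with 65.7 and 136 FPKM. It falls within the rule when the columns are rescaled with AT2G01021 in the sums, which leaves 16 of the 21 higher. Its log2 ratio of salt over no salt in wild type was 4.08. SOT12, a sulfotransferase, stood at 76.0 and 332 FPKM, 4.32-fold higher. CYP81D8, a cytochrome P450 often used as a stress marker, stood at 68.0 and 223 FPKM, 3.24-fold higher. UGT74E2, which joins glucose to the auxin indole-3-butyric acid, stood at 66.0 and 203 FPKM, 3.05-fold higher. ABCB4, an auxin transporter, stood at 36.3 and 151 FPKM, 4.07-fold higher. AT5G43450, annotated as a 2-oxoglutarate oxygenase, stood at 49.4 and 247 FPKM, and AT2G32020, annotated as an acyltransferase, at 37.8 and 94.1. The 2 glutathione transferases of the list were within the rule, GSTU24 at 118 and 93.2 FPKM and GSTU25 at 95.5 and 135.

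**Figure D2:**
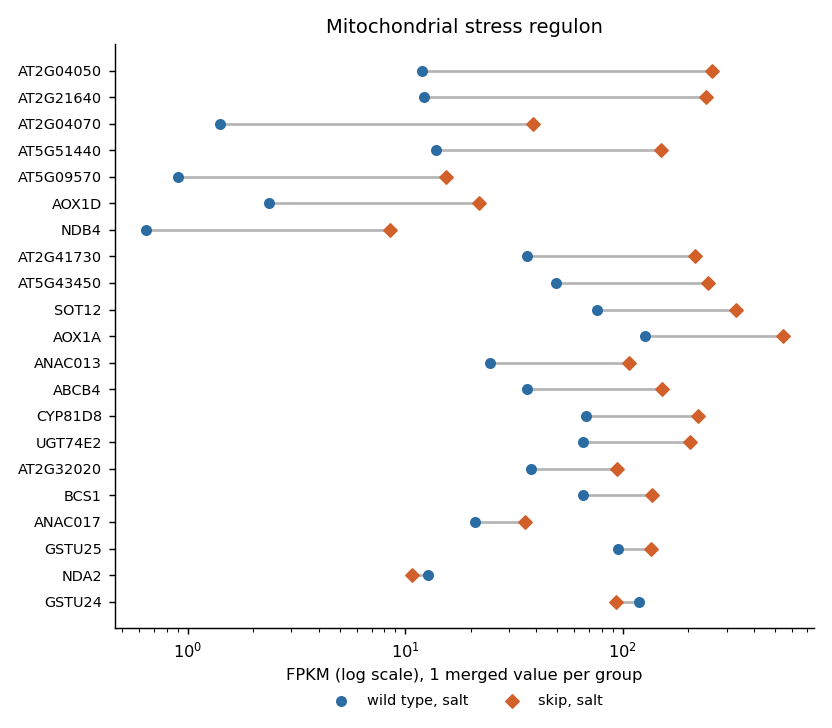
FPKM on a log axis of each gene of the mitochondrial stress regulon in wild type under salt and in skip under salt, 1 merged value per group and no error. For 17 of the 21 genes the skip value lies at least 2-fold to the right of the wild type value, and ANAC017, NDA2, GSTU24 and GSTU25 are the genes within the rule.

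The promoters of these genes are shown because the letters bound by ANAC013, the mitochondrial dysfunction motif, could be searched for in them. The motif was taken as CTTG, any 5 bases, and then CAAG or CACG, on either strand, in the 250 bases before the annotated start of the longest transcript, read from the TAIR10.1 assembly with RefSeq annotation. Of the 21 regulon promoters 5 held it, AT2G21640, ANAC017, AT2G04050, AT5G51440 and CYP81D8, against 0.858% of the 14809 promoters of all members that could be read. The motif is the site of ANAC013, which is itself on the list, so this share describes the list and is no result about skip. The windows below run 5′ to 3′ along the gene, with the match in capitals. They are AT2G04050 at chr2:1339469-1339718 (minus strand), AT2G21640 at chr2:9254128-9254377 (plus strand), AT5G51440 at chr5:20890913-20891162 (plus strand) and MTHSC70-1, an import chaperone, at chr4:17828181-17828430 (minus strand).
AT2G04050: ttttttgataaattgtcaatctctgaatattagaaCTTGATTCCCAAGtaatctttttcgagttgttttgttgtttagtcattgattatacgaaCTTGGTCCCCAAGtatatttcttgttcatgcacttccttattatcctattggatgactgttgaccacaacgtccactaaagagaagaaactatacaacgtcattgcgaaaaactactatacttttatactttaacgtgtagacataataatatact
AT2G21640: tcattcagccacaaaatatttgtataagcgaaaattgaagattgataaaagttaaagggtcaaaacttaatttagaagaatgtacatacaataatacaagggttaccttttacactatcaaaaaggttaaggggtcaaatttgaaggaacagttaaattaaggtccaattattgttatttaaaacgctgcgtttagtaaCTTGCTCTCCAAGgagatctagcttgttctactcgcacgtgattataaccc
AT5G51440: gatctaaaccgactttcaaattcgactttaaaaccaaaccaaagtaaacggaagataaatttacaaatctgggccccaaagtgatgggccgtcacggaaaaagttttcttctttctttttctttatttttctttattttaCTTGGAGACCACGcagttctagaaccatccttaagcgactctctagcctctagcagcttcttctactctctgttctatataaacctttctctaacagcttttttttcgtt
MTHSC70-1: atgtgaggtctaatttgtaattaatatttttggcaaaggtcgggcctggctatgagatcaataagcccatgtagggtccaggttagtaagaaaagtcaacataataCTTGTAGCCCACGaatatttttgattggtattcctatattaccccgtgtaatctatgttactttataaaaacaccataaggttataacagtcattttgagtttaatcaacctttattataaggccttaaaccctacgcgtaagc
AT2G04050 held 2 matches, and the first began 215 bases before the start. The match of AT2G21640 began 51 bases before the start, that of AT5G51440 110 bases and that of MTHSC70-1 144 bases. A match describes letters in the window and not binding.

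A second mitochondrial group, put together after the values had been seen, holds the import chaperones, channels and inner membrane proteins. All 18 members had ratios above 0, but 3 were higher by the rule and 0 lower, and the median was 0.33. MTHSC70-1, the mitochondrial HSP70 that pulls proteins through the import channel, stood at 56.7 FPKM in wild type and 199 in skip, 3.47-fold higher. VDAC3, a channel of the outer membrane, stood at 121 and 282 FPKM, 2.33-fold higher. NDA1, an alternative NADH dehydrogenase regulated by light, stood at 28.3 and 58.3 FPKM, 2.02-fold higher, and falls within the rule when the columns are rescaled. The prohibitins, which form rings in the inner membrane, had ratios from 0.34 to 0.75, and HSP60, the folding chaperone of the matrix, stood at 52.3 and 61.5 FPKM. PHB3, NDA1 and NDB2 also held the mitochondrial dysfunction motif, with ratios of 0.41, 1.02 and 0.08.

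Transporters and enzymes that handle foreign compounds were the next group with large values. ABCC3, a vacuolar pump for glutathione conjugates and chlorophyll breakdown products, stood at 29.4 FPKM in wild type and 279.7 in skip, 9.24-fold higher. In the UGT73C cluster, whose enzymes glucosylate brassinosteroids and flavonoids, 3 of 4 members were higher. The list of this cluster was put together after the values had been seen. UGT73C5 stood at 11.5 and 62.4 FPKM and UGT73C1 at 11.1 and 35.6. UGT73C6 stood at 1.88 and 31 FPKM, and 92.1% of its sequence is shared with another locus. It is a member only through its skip value. AT2G36780 of the same cluster was within the rule, with a ratio of 0.32. Over all 41 UDP-glycosyltransferases 4 were higher and 5 lower (median -0.11), so most of the family was within the rule.

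The MATE carriers, which expel organic compounds in exchange for protons, showed 3 of 30 members higher and 3 lower, with a median of -0.07. The 3 higher ones lie near each other on chromosome 2. Beside AT2G04050, AT2G04070 stood at 1.40 FPKM in wild type and 38.7 in skip, 16.5-fold higher, and DTX1, an efflux carrier for alkaloids and other toxins, at 4.74 and 17.3, with 21.5% shared sequence. AT2G04070 and DTX1 are members only through their skip values. AT2G04080 of the same group was within the rule at 10.4 and 7.10 FPKM. Those lower in skip were AT5G44050 at 28.3 and 6.76 FPKM, AT5G38030 at 10.2 and 2.39, and ALF5, a carrier that protects root growth, at 17.8 and 7.20.

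Cytochromes P450 had 9 of 92 members higher and 4 lower. CYP71B15, the enzyme that completes camalexin synthesis, stood at 6.0 FPKM in wild type and 25.7 in skip, 3.81-fold higher. CYP72A8 stood at 9.58 and 28.3 FPKM. CYP81F4, an enzyme of indole glucosinolate modification, stood at 173 and 62.3 FPKM, 2.75-fold lower, with 85.1% of its sequence shared with another locus. CYP71A19 was also lower, at 8.63 and 2.65 FPKM. The tau class of glutathione transferases, which join glutathione to toxic compounds, had 1 of 22 members higher and 4 lower, and a median of -0.27. GSTU9 was the higher one, at 41.3 and 121 FPKM. GSTU26, at 48.8 and 16.8 FPKM, had the lowest ratio, -1.48. GSTU2, at 29 and 11.2 FPKM, shares 63.3% of its sequence with another gene. GSTU7 and GSTU13, with ratios of -1.05 and -1.0, return to within the rule when the values are centred.

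The circadian clock runs on loops in which the morning factors CCA1 and LHY repress evening genes through the evening element, and evening genes in turn repress the morning factors. The seedlings were taken at a single time, and the labels state no time of day. Of 16 morning genes, 4 were higher in skip and 0 lower. Their median was 0.00 and its sign changes with the scaling. ASG4, a MYB-like factor related to the REVEILLE group, stood at 7.16 FPKM in wild type and 40.7 in skip, 5.11-fold higher. LHY stood at 3.51 and 16.9 FPKM, 3.96-fold higher. CCA1 stood at 30.1 and 68.0 FPKM, 2.22-fold higher. RVE8, an activator of evening genes, stood at 4.96 and 11.6 FPKM, 2.12-fold higher. LHY and RVE8 are members only through their skip values, so they could not have been counted as lower. The other 12 morning genes were within the rule, among them PRR9 with a ratio of -0.11 and PRR7 with -0.62.

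Of 16 members of the evening clock list, 0 were higher and 4 lower, and the median was -0.69. The list also holds ZTL, LKP2, CDF1, CDF2 and CDF3, so it is not limited to genes of evening expression. FKF1, a blue light receptor that times flowering, stood at 13.7 FPKM in wild type and 2.88 in skip, 3.79-fold lower. It is a member only through its wild type value. GRP7, an RNA-binding protein driven by the clock, stood at 848 and 251 FPKM, 3.36-fold lower. ELF4, a subunit of the evening complex, stood at 79.0 and 24.9 FPKM, 3.09-fold lower. GRP8, the close relative of GRP7, stood at 215 and 84.4 FPKM, 2.53-fold lower. LUX, the DNA-binding subunit of the evening complex, stood at 33.0 and 16.1 FPKM and PRR5 at 26.2 and 12.9, both just inside the rule and past it when the columns are rescaled. TOC1, which closes the loop on the morning factors, stood at 22.8 and 13.8 FPKM. GI, ELF3, ZTL and CDF3 had ratios of -0.16, -0.17, 0.20 and 0.27, so the lower values did not extend to the whole list.

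Evening elements were searched for as AAAATATCT on either strand, so AGATATTTT on the printed strand is the same element read from the other side. Of the 16 promoters of the evening clock list 7 held it, PRR5, TOC1, LUX, BOA, FKF1, GRP7 and GRP8, against 2.61% of all 14809 promoters. The median ratio of these 7 genes was -0.99 and that of the other 9 was -0.17. The other 9 include ZTL, LKP2, CDF1, CDF2 and CDF3. Windows of 250 bases before the start are shown for the genes with the lowest ratios that hold the element, 5′ to 3′ with the element in capitals, from TAIR10.1 with RefSeq annotation. GRP7 is at chr2:9266558-9266807 (minus strand), GRP8 at chr4:18275217-18275466 (minus strand), FKF1 at chr1:25508389-25508638 (plus strand) and ISA3, a starch enzyme described next, at chr4:5783659-5783908 (plus strand).
GRP7: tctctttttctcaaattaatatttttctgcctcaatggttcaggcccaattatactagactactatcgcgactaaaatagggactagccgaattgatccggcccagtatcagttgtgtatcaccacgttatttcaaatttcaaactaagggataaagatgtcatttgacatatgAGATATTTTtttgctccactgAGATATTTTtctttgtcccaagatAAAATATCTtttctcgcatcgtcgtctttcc
GRP8: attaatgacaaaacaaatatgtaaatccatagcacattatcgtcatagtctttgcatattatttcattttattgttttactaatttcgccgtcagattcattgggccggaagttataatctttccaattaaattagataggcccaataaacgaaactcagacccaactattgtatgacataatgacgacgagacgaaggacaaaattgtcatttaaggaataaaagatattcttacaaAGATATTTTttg
FKF1: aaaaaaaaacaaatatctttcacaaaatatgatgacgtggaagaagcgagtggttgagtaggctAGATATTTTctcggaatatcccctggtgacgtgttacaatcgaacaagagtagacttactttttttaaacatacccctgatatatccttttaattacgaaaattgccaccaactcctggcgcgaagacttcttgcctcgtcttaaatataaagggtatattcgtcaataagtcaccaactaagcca
ISA3: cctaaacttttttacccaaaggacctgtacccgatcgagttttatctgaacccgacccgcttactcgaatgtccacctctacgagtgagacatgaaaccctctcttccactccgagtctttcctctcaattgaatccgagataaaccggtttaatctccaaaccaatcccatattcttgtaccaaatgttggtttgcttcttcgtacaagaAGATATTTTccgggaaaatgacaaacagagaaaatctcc
GRP7 held 3 elements, the first beginning 76 bases before the start. The element of GRP8 began 12 bases before the start, that of FKF1 186 bases and that of ISA3 39 bases.

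Starch made in the chloroplast by day is broken down at night by glucan phosphorylation, debranching and amylases, and the resulting maltose is metabolised in the cytosol. Of 14 members of a list of these enzymes, put together after the values had been seen, 10 were lower in skip and 0 higher, and the median was -1.35. SEX1, the glucan dikinase that opens the granule, stood at 147 FPKM in wild type and 53.3 in skip, 2.73-fold lower. SEX4, the phosphatase that removes those phosphates, stood at 90.9 and 28.4 FPKM, 3.12-fold lower. ISA3, the debranching enzyme, stood at 111 and 20.4 FPKM, 5.22-fold lower. DPE2, which uses maltose in the cytosol, stood at 152 and 45.5 FPKM, 3.29-fold lower. PHS2, the cytosolic phosphorylase, stood at 141 and 43.8 FPKM, 3.18-fold lower. BAM5, a beta-amylase found outside the chloroplast, stood at 101 and 12.7 FPKM, 7.48-fold lower. DPE1, LDA, AMY3 and PHS1 were also lower, with ratios from -1.41 to -1.01, and PHS1 returns to within the rule when the values are centred.

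The steps from granule to cytosol were thus represented among the lower genes, but the main plastid beta-amylases were not. BAM1, which acts under osmotic stress, had 209.7 FPKM in wild type and a ratio of 0.51, and BAM3, the beta-amylase of leaves at night, stood at 87.9 and 93.0 FPKM. PWD, the second dikinase, was within the rule at 37.5 and 27.9 FPKM, although its promoter held an evening element as that of ISA3 did. In wild type, salt over no salt gave log2 ratios of 1.70 for ISA3, 0.91 for SEX1, 0.43 for PHS2 and 2.59 for BAM1, from a comparison that shares the salt-treated wild type.

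Genes of carbon fixation and photorespiration were higher in part. Photorespiration recovers the carbon lost when Rubisco reacts with oxygen, through chloroplast, peroxisome and mitochondrion. Of 16 listed enzymes, 4 were higher and 0 lower, and the median was 0.35. CAT2, the catalase of leaf peroxisomes, stood at 328 FPKM in wild type and 854 in skip, 2.60-fold higher. GLDP2, a glycine decarboxylase subunit of mitochondria, stood at 85.2 and 213 FPKM, 2.49-fold higher. GOX2, a glycolate oxidase, stood at 92.6 and 195 FPKM, 2.1-fold higher, and its neighbour GOX1, at 307 and 581, was within the rule. HPR, the hydroxypyruvate reductase, stood at 140.1 and 290.4 FPKM, and falls within the rule when the columns are rescaled. SHM1, GGT1 and GS2, which act between these steps, had ratios of 0.10, 0.20 and 0.16.

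Among 13 enzymes of carbon fixation 1 was higher and 0 lower, with a median of 0.56. That gene was GAPA, a subunit of the chloroplast glyceraldehyde-3-phosphate dehydrogenase, at 540.4 and 1277 FPKM. RCA, Rubisco activase, stood at 1489 and 2851 FPKM and PRK, phosphoribulokinase, at 321 and 638, both just inside the rule and past it when the values are centred. The Rubisco small subunit genes had ratios from -0.19 for RBCS3B to 0.75 for RBCS2B. CA2, a carbonic anhydrase outside these lists and among the most abundant higher genes, stood at 122 and 360.0 FPKM, 2.95-fold higher. Both lists were put together after the values had been seen.

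Photosystem and antenna proteins, gathered by their annotation text, showed 2 of 65 members higher and 1 lower, with a median of -0.27. The higher ones were the early light-induced proteins, which appear under light stress and bind chlorophyll outside the normal antenna. ELIP1 stood at 81.9 FPKM in wild type and 621 in skip, 7.50-fold higher. ELIP2 stood at 27.4 and 245 FPKM, 8.67-fold higher. LPA19, an assembly factor of photosystem II, was lower at 8.66 and 2.2 FPKM. The standard antenna genes were within the rule, with CAB1 at 9353 and 5825 FPKM and CAB2 at 4521 and 2434, and these copies share 22.0% and 20.5% of their sequence with other genes. Lhca6, an antenna protein of photosystem I, was also within the rule, at 45.3 and 67.4 FPKM, a log2 ratio of 0.56.

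Protective genes of the cold and drought type had lower values in skip in part. DREB factors bind the dehydration element and switch on COR and LEA genes. Of 9 members, 0 were higher and 4 lower, and the median was -0.89. CBF3 stood at 30.03 FPKM in wild type and 9.02 in skip, 3.10-fold lower. DDF1, which also regulates gibberellin breakdown, stood at 35 and 11.3 FPKM, 2.92-fold lower. DREB2A, the drought and heat factor, stood at 170.5 and 66.8 FPKM, 2.53-fold lower. CBF4, at 13 and 5.96 FPKM, returns to within the rule when the values are centred. CBF1, at 45.0 and 26.2 FPKM, and CBF2, at 30.5 and 19.9, were within the rule, and DREB2B had a ratio of 0.26. In wild type the salt log2 ratios of CBF3, DDF1 and DREB2A were 3.14, 5.28 and 4.85.

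Of 22 LEA and COR proteins, which stabilise membranes and other proteins in drying cells, 0 were higher and 5 lower, and the median was -0.59. COR413-IM1, of the chloroplast inner envelope, stood at 273 FPKM in wild type and 81.3 in skip, 3.34-fold lower. COR15A, a chloroplast stroma protein, stood at 1892 and 666 FPKM, 2.84-fold lower. COR15B, its neighbour with 27.3% shared sequence, stood at 432 and 187 FPKM. KIN1 stood at 700.1 and 312 FPKM and the dehydrin LTI30 at 1270.5 and 586. RAB18, at 394 and 349 FPKM, LEA4-5, with a ratio of -0.22, and EM1, with 0.10, were within the rule. Beyond the list, AT4G38410, annotated as a dehydrin, stood at 36.3 and 4.94 FPKM, 6.29-fold lower, and AT3G02480, an abundant protein of the LEA family, at 1515 and 753.

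The abscisic acid pathway itself had few members past the rule. Among 24 signalling genes 1 was higher and 1 lower, with a median of 0.08. AHG1, a phosphatase of clade A that restrains the pathway in seeds, stood at 1.40 FPKM in wild type and 5.57 in skip. It is a member only through its skip value. ABF1, a bZIP factor of the pathway, stood at 43.4 and 17.1 FPKM, 2.46-fold lower. The other factors of that group, ABF2, ABF3 and ABF4, had ratios of 0.08, 0.16 and 0.07. Among 9 genes of synthesis and breakdown 2 were higher, both for the hydroxylase that destroys the hormone. CYP707A4 stood at 3.16 and 11.4 FPKM and CYP707A2 at 7.71 and 19.1, the first a member only through its skip value. NCED3, the limiting enzyme of stress-induced synthesis, was within the rule at 54.8 and 38.0 FPKM, as were CYP707A1 and CYP707A3 with ratios of -0.19 and 0.13.

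In the SOS pathway, calcium sensors activate a kinase that drives the sodium exporter SOS1. Of 11 ion transport genes 0 were higher and 2 lower, and the median was -0.11. Both lower genes were sensors, while CBL1, a further calcineurin B-like protein of the list, was within the rule at 32.9 and 30.5 FPKM. SOS3, the sensor of roots, stood at 14.7 FPKM in wild type and 5.24 in skip, 2.52-fold lower. CBL10, the sensor of shoots, stood at 16.8 and 6.94 FPKM, 2.25-fold lower. The exporter SOS1, at 6.07 and 7.51 FPKM, and the vacuolar exchanger NHX1, at 62.8 and 72.7, were within the rule. Among 6 genes of compatible solutes GOLS4, a galactinol synthase, was lower at 24.1 and 11.0 FPKM but not when the values are centred. P5CS1, the limiting enzyme of proline synthesis, stood at 464 and 452 FPKM. Of 18 aquaporins, TIP2;3 of the vacuole membrane was lower at 15.66 and 5.35 FPKM, and 0 were higher.

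Of 25 jasmonate genes 0 were higher and 5 lower, and the median was -0.28. With the values centred on the median nuclear gene, 3 were higher. VSP1, a vegetative storage protein with phosphatase activity, stood at 222 FPKM in wild type and 41.6 in skip, 5.22-fold lower. VSP2 stood at 966 and 231 FPKM, 4.17-fold lower. TAT3 and CORI3, aminotransferases induced by jasmonate, stood at 99.9 and 37.3 FPKM and at 606 and 258. JAZ7, a repressor, stood at 25.8 and 10.5 FPKM. Other repressors were within the rule on the opposite side of 0, with JAZ6 at 31.7 and 63.2 FPKM and JAZ9 at 97.2 and 170.3. LOX2, the plastid lipoxygenase that starts synthesis, stood at 1037 and 524 FPKM, inside the rule and past it when the columns are rescaled. DHAR1, a dehydroascorbate reductase among the most abundant lower genes, stood at 1334 and 460.3 FPKM.

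ER bodies are compartments of the endoplasmic reticulum that hold defence beta-glucosidases. Of 8 genes 2 were lower and 0 higher, with a median of -0.72 and all 8 ratios below 0. BGLU24 stood at 70.7 FPKM in wild type and 3.49 in skip, 15.96-fold lower. BGLU22 stood at 79.4 and 15.9 FPKM, 4.75-fold lower. PYK10, the main protein of these bodies, stood at 443 and 223 FPKM, inside the rule. Glucosinolates are the substrates of such enzymes, and 3 of 18 synthesis genes were higher and 0 lower, and the median was 0.31. BCAT4, which starts the chain elongation of methionine, stood at 26.8 and 66.3 FPKM. MAM3, the condensing enzyme of that cycle, stood at 8.90 and 19.7 FPKM. CYP79F1, which turns the products into aldoximes, stood at 13.6 and 32.7 FPKM. All 3 belong to the methionine branch, and the tryptophan branch enzymes CYP79B2 and CYP79B3 had ratios of -0.03 and -0.34. Salt over no salt in wild type gave -2.58, -2.69 and -2.97 for the same 3 genes.

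Copper and iron genes held 3 lower and 1 higher among 12, with a median of -0.16. CSD1 and CSD2, the copper-zinc superoxide dismutases of cytosol and chloroplast, were lower, at 71.2 and 31.6 FPKM and at 40.7 and 14.2. COPT2, a copper importer and a member only through its skip value, was higher at 4.89 and 22.4 FPKM. NAS4, a nicotianamine synthase for metal transport, was lower at 10.5 and 4.02 FPKM. FSD1, the iron superoxide dismutase, was within the rule with a ratio of -0.11. MIR397a and MIR398b, loci of microRNAs that target copper proteins, were listed at 169 and 36.6 FPKM in wild type and at 0 in skip. A 0 for such a short locus can be a failed estimate, MIR398b shares its whole sequence with another locus, and MIR398b was named after its values had been seen.

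Genes of salicylate defence and camalexin synthesis had 2 higher and 0 lower of 7, with a median of 0.16. Beside the camalexin enzyme CYP71B15, PR2, a glucanase, was higher, at 2.35 FPKM in wild type and 6.14 in skip. PR2 is a member only through its skip value. EDS1, ICS1 and NPR1, which carry the salicylate signal, were within the rule with ratios of 0.38, -0.23 and 0.16. PAD4 was also within the rule, at -0.60. Cysteine-rich receptor-like kinases, gathered by annotation, had 4 of 14 members higher and 0 lower, with a median of 0.31. CRK36 stood at 1.66 and 18.4 FPKM, 7.29-fold higher. CRK10 stood at 9.50 and 25 FPKM and CRK6 at 0.539 and 5.48, the latter with 22.9% shared sequence. CRK36 and CRK6 are members only through their skip values. CRK18, at 5.53 and 12.4 FPKM, falls within the rule when the columns are rescaled.

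WRKY factors gave 2 higher and 2 lower of 44. WRKY25 stood at 27 FPKM in wild type and 64.6 in skip, and WRKY57, a factor of drought tolerance, at 18.4 and 39.6. WRKY38 stood at 18.4 and 6.24 FPKM and WRKY51 at 16.9 and 7.54. ZAT7, a zinc finger factor, and WRKY25 were the 2 higher genes among 16 other stress factors, ZAT7 with 4.56 and 13.1 FPKM. ZAT7 is a member only through its skip value. ZAT10, ZAT12 and WRKY40, which had salt log2 ratios of 4.76, 3.87 and 5.12 in wild type, had skip over wild type ratios of 0.00, -0.01 and -0.13.

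Stress of the endoplasmic reticulum differs from that of mitochondria in its markers, and here 1 of 10 unfolded protein response genes was higher and 0 lower. BZIP60, the factor spliced by IRE1, stood at 80.9 FPKM in wild type and 214 in skip, 2.63-fold higher. The chaperones BIP1, BIP2 and CNX1 were within the rule, at ratios of -0.09, -0.12 and -0.14. Of listed genes below 5 FPKM in both columns, NAC103 stood at 1.05 and 3.23 FPKM, a ratio of 1.05. BIP3, also below that level, stood at 3.08 and 4.87 FPKM, a ratio of 0.52. Cytosolic heat shock genes had 0 of 12 past the rule, HSP101 standing at 5.95 and 5.12 FPKM and HSP70 at 58.9 and 59.6. Sulfur deficiency markers also had 0 of 11 past the rule, and energy starvation genes 0 of 14, with a median of -0.32 led by DIN6, an asparagine synthetase, at 31.7 and 17.0 FPKM. Among 15 flavonoid genes TT8, a bHLH regulator, was higher at 5.5 and 12.7 FPKM and MYB12, a flavonol regulator, lower at 12.4 and 4.92. CHS, the entry enzyme, had a ratio of 0.28.

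Genes of growth were mostly within the rule, with medians below 0. Of 19 XTH enzymes, which cut and rejoin xyloglucan in the wall, 0 were higher and 3 lower, and the median was -0.39. XTH7 stood at 42.6 FPKM in wild type and 16.9 in skip, 2.43-fold lower, while XTH8 and XTH31, at ratios of -1.05 and -1.01, return to within the rule when the values are centred. Alpha-expansins, which loosen the wall, had 0 of 12 past the rule and a median of -0.45. Aux/IAA repressors had 2 of 22 lower, IAA19 at 27.8 and 11.7 FPKM and IAA30 at 34.5 and 15.1, with a family median of -0.30. SAUR proteins had 2 of 19 lower, AT4G31320 at 6.32 and 1.92 FPKM and AT4G00880 at 28.9 and 13.8, the latter with 37.4% shared sequence and within the rule when centred.

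Histones, gathered by annotation, had 2 of 37 lower and 0 higher, and 34 of the 37 ratios were below 0, with a median of -0.32. AT3G53650, annotated as a histone, stood at 44.2 and 17.3 FPKM and has a salt log2 ratio of 1.22 in wild type. AT2G28720, also annotated as a histone, stood at 36.9 and 17.58 FPKM and is within the rule when centred. Cell cycle genes had 0 of 13 past the rule and a median of 0.20. Many of the histones have 1 exon and all cell cycle genes have 2 or more, so the 2 groups also differ in exon number. The SAUR and DREB lists above also hold mostly genes with 1 exon. CYCB1;1, the mitotic cyclin, stood at 3.71 and 6.34 FPKM. Ribosomal proteins, by annotation, had 0 of 307 higher and 1 lower, AT4G38090, at 22.1 and 10.4 FPKM, and a median of 0.10. Pentatricopeptide repeat proteins, which bind organelle RNA, had 2 of 58 higher and a median of 0.21. MRL1, which stabilises the transcript of the Rubisco large subunit, stood at 11.5 and 29.7 FPKM, and AT2G20720, with 71.8% shared sequence, at 3.36 and 19.2.

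Flowering genes had 1 of 12 higher and 1 lower. FLM, a temperature-dependent repressor of flowering, stood at 25.1 FPKM in wild type and 10.4 in skip, 2.29-fold lower. SNZ, an AP2-type repressor, stood at 20.6 and 42.9 FPKM and falls within the rule when the columns are rescaled. MADS factors close to SOC1 were much lower although SOC1, which promotes flowering, was within the rule at 29.6 and 38.2 FPKM. AGL14 stood at 12.6 and 1.0 FPKM, 6.80-fold lower. AGL42 stood at 8.50 and 0.670 FPKM, 5.69-fold lower. AGL19, which responds to cold, stood at 12.51 and 1.55 FPKM, 5.29-fold lower. This list was put together after the values had been seen, and several of its genes are known from roots.

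Phosphocholine, the head group of a main membrane lipid, is made by methyltransferases that had low values in skip. XPL1, which performs all methylation steps, stood at 14.9 FPKM in wild type and 0.0284 in skip, a log2 ratio of -3.95. AT1G73600, annotated as a methyltransferase of the same list, stood at 189 and 42.9 FPKM, 4.32-fold lower. PMEAMT, which performs the later steps, stood at 122 and 61.2 FPKM, inside the rule. All 3 had values on the lower side in skip, and salt over no salt in wild type gave 1.45, -0.61 and -0.29. The list was put together after the values had been seen, and XPL1 is a member only through its wild type value.

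Of 7 MLP proteins, named after a latex protein, 5 were lower and 0 higher, with a median of -1.24. MLP328 stood at 55.6 FPKM in wild type and 6.76 in skip, 7.29-fold lower, and MLP329 beside it at 47.3 and 8.20. MLP165 stood at 9.73 and 1.79 FPKM, and MLP34 at 52.9 and 21.8. MLP423, at 144 and 71.3 FPKM, is within the rule when centred. Of 9 methionine sulfoxide reductases B, which repair oxidised proteins, 4 were lower and 0 higher, with a median of -0.71. MSRB7 stood at 109 and 35.8 FPKM, MSRB8 at 92.4 and 33.0 and MSRB9 at 112 and 50.2, and the first 2 share 22.2% and 23.9% of their sequence with another gene. MSRB1 and MSRB2, the forms of the chloroplast, had ratios of -0.15 and 0.14. MSRB4, at 9.76 and 4.20 FPKM, is within the rule when centred, and MSRB6 was within it at 23.9 and 14.2. Both lists were put together after the values had been seen.

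SKIP works in the spliceosome, so its partners were read as a group. Of 21 spliceosome and Paf1 genes 0 were past the rule, with a median of 0.10, from ELF7 at -0.31 to PRP8 at 0.55. PRP8, the core of the spliceosome, stood at 32.6 FPKM in wild type and 48.2 in skip. PRL1 and CDC5, which share a complex with SKIP, had ratios of 0.14 and 0.07. SR proteins, which choose splice sites, had 0 of 19 past the rule, from SR34B at -0.61 to RSZ22A at 0.56. Nonsense-mediated decay, which removes transcripts with early stops, had 0 of 4 past the rule, with UPF1 at 29.5 and 32.8 FPKM. Gene totals of the splicing machinery were thus within the rule throughout these 3 lists.

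Genes with 1 exon, which need no splicing, had lower ratios than genes with introns. Among the 1957 members with 1 exon, 11.0% were lower in skip and 2.96% higher, with a median of -0.37. Among the 12853 with 2 or more exons, 3.66% were lower and 2.03% higher, with a median of -0.05. The share of lower genes went down from 6.10% at 2 exons through 4.25% at 3 to 4, 3.10% at 5 to 8, 2.60% at 9 to 12 and 2.29% at 13 to 20, to 2.18% at 21 or more. Transcript length moved with it, since 9.31% of transcripts of 601 to 1000 nt were lower and 1.18% of those over 3000 nt. Within length classes the difference in medians remained. It was -0.37 against -0.11 at 601 to 1000 nt, -0.41 against -0.11 at 1001 to 1500 nt, -0.42 against -0.07 at 1501 to 2000 nt and -0.25 against -0.00 at 2001 to 3000 nt. Over 3000 nt it was -0.08, from 62 genes with 1 exon, against 0.07.

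The 1-exon median was also the lower one in each of 5 classes of GC content and on each of the 5 chromosomes. Chromosome 2 gave -0.40 against -0.07 and chromosome 1 gave -0.34 against -0.05. Restricted to protein-coding genes, the medians were -0.37 and -0.05. In wild type, salt over no salt had medians of 0.25 for 1-exon genes and 0.04 for the others, a comparison that shares the salt-treated wild type. The lower genes of the whole comparison were short, with a median transcript length of 1264.5 nt against 1716 nt for the higher genes and 1724 nt for all. The exon classes were chosen with earlier results known, and the part of length, library preparation and genotype in the pattern was not tested.

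**Figure D3:**
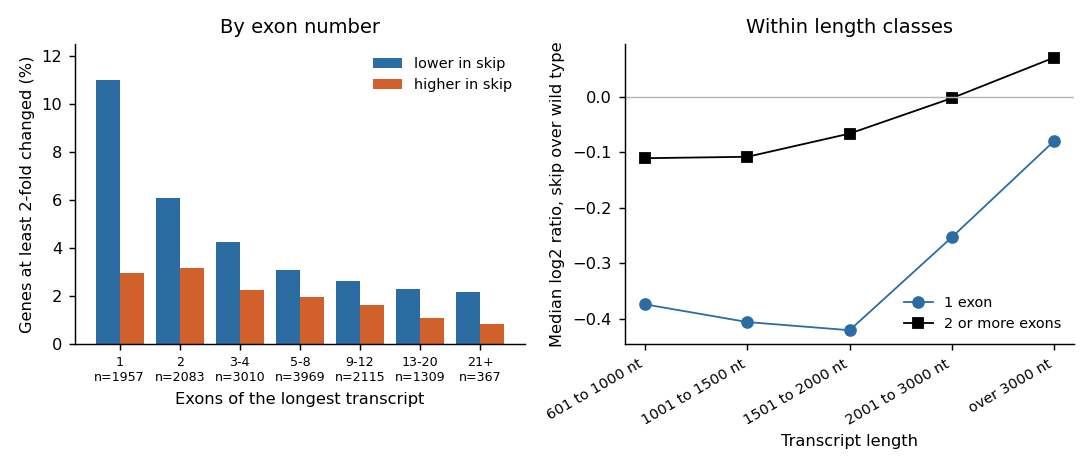
Percentage of genes past the 2-fold rule in each direction by the number of exons of the longest transcript, and the median log2 ratio of genes with 1 exon and with 2 or more exons within classes of transcript length. The share of lower genes is 11.0% at 1 exon and 2.18% at 21 or more, and the 1-exon median is the lower one in every length class drawn.

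A survey of 10 promoter motifs, each searched on both strands in the 250 bases before the start, described the called genes as a whole. The mitochondrial dysfunction motif was present in 8.46% of the 319 higher promoters, 27 genes, in 0.875% of the 686 lower ones, 6 genes, and in 0.858% of all. Read from the motif, 21.3% of the 127 genes that hold it were higher and 4.72% lower, against 2.16% and 4.65% of all genes. The 27 include NAC044, a factor of the DNA damage response, at 1.47 FPKM in wild type and 18.5 in skip, and SRO2, of the family of RCD1. AT2G21640, AT2G04050, AT5G51440 and CYP81D8 of the regulon list are also among the 27, so this share is not independent of that list. The 6 lower ones include ADH1, alcohol dehydrogenase, at 196 and 55.9 FPKM, and ELF4. The evening element was present in 4.52% of lower promoters, 31 genes, in 1.57% of higher ones, 5 genes, and in 2.61% of all.

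The G-box CACGTG was in 13.4% of lower promoters and 9.72% of higher ones, against 8.33% of all. The abscisic acid element, ACGTGTC or ACGTGGC, was in 11.3% of higher and 9.33% of lower promoters, against 8.12%. The DREB site, ACCGAC or GCCGAC, was in 11.8% of lower and 7.52% of higher promoters, against 8.81%. The W-box, TTGACC or TTGACT, was in 34.2% of higher and 25.5% of lower promoters, against 27.9%. The telo-box AAACCCTA, of ribosomal protein genes, was in 2.04% of lower and 3.76% of higher promoters, against 3.6%. The CCA1-binding site AAAAATCT, with 6.58% and 6.56% against 6.89%, and the GCC-box GCCGCC, with 1.57% and 2.48% of higher and lower promoters against 1.99%, were near the background. Matches of the heat shock element, the triplets GAA, TTC and GAA (or TTC, GAA and TTC) spaced by any 2 bases, were in 0.466% of all promoters, in 0% of higher ones and in 0.583% of lower ones. Matches can overlap, and the mitochondrial dysfunction motif overlapped a G-box in 9 promoters, an abscisic acid element in 9 and a W-box in 5. With 50 bases after the start added, its shares were 10.3% of higher, 1.17% of lower and 1.03% of all promoters, and those of the evening element 2.19%, 7.0% and 3.17%.

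**Figure D4:**
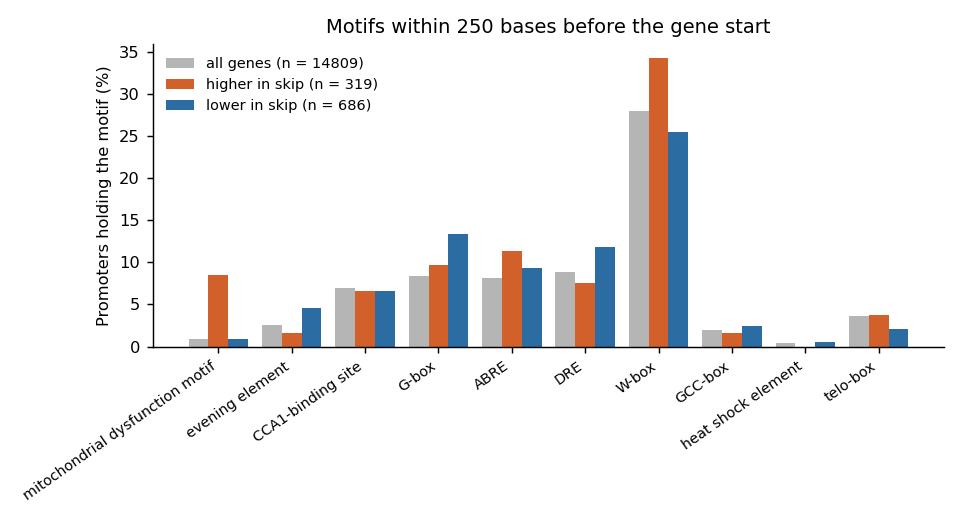
Percentage of promoters (250 bases before the start) that hold each of 10 motifs, for all members, for higher genes and for lower genes by the 2-fold rule. The mitochondrial dysfunction motif is at 8.46% in higher genes against 0.858% in all, and the evening element at 4.52% in lower genes against 2.61% in all.

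Apart from these groups, the largest ratios belonged to genes with little in common. Higher in skip were AT4G29200, annotated as related to beta-galactosidase, at 0.0669 FPKM in wild type and 12.8 in skip, and AT3G58150, annotated as an OPA3 protein, at 1.11 and 22.2. The pseudogene AT2G16367 stood at 1.04 and 16.7 FPKM, and SADHU3-2, a retroelement locus, at 0.327 and 8.79. Lower in skip were PAO2, a polyamine oxidase, at 8.41 and 0.366 FPKM, and AT4G23670, annotated as a lipid transport protein, at 845 and 103. AT2G05510, a glycine-rich protein, stood at 143 and 9.39 FPKM, and GRP9, of the same type, at 745 and 203. AT1G13930, annotated as similar to an oleosin, stood at 1971 and 543 FPKM. AT3G02468 had the lowest ratio among genes above 0 in both columns, -5.54, with 103 and 1.23 FPKM. The reference holds no gene of that identifier, and it drops out where short, ribosomal and unmatched genes are left out. MRD1, at 27.6 and 2.13 FPKM, is overlapped by another locus along nearly its whole length.

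Runs of at least 3 neighbouring genes past the rule in the same direction occurred 4 times. Higher together were AT1G05675, UGT74E2 and BT3 on chromosome 1, with ratios of 1.47, 1.61 and 1.03, and MTHSC70-1, AT4G37920 and NdhM on chromosome 4, with 1.80, 1.06 and 1.52. NdhM is a subunit of the chloroplast NADH dehydrogenase complex and stood at 21.5 FPKM in wild type and 63.6 in skip. Lower together were ALDH5F1, ALIS5 and GA2 on chromosome 1, with -1.47, -1.11 and -1.21, and MSRB7, MSRB8 and MSRB9 on chromosome 4. GA2 makes a gibberellin precursor and ALDH5F1 acts in the breakdown of GABA. BT3 and UGT74E2 thus stand side by side although BT3, at 2.06 and 5.23 FPKM, returns to within the rule when the columns are rescaled.

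Of the members, 2 were listed at 0 in wild type and 13 in skip, and no fold is given for them. AT5G03204, an uncharacterised gene, was at 0 in wild type and 86.3 FPKM in skip, and AT2G28426 at 0 and 7.74. The 18S ribosomal RNA loci AT3G41768 and AT2G01010 were at 4608 and 2341 FPKM in wild type and at 0 in skip. Of the 13 genes at 0 in skip, 11 are short, ribosomal or without a reference entry. Because a gene enters with 5 FPKM in either column, a gene that is low in 1 column enters through the other. Among the 394 genes whose higher value lay between 5 and 5.5 FPKM, 7 were higher in skip and 20 lower, and among the 424 just outside, between 4.5 and 5 FPKM, 10 and 19.

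Organ markers describe what the seedlings held. Of 19 root genes 7 were members, 0 of them past the rule, with a median of -0.13. SCR, of the root endodermis, had a ratio of 0.17 and PHO1, which loads phosphate into the xylem, 0.24, while ESB1, of the Casparian strip, stood at 9.10 FPKM in wild type and 5.68 in skip with 83.3% shared sequence. MYB36, SHR and CASP1 had ratios of -0.40, -0.42 and -0.13, and PHT1;1 had 0.31. Among root genes below 5 FPKM in both columns, RHD6 had -1.04 and PRP3 0.63. None of 9 seed genes and none of 7 floral genes reached 5 FPKM, the floral gene LFY standing at 0.792 FPKM in skip. Seed and floral markers were thus all under the level that the rule asks for.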

How the data were processed

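The 2 tables hold 2 value columns each, and all 4 were used. The deposited values were read as FPKM, 1 per gene and group with 2 replicates merged by the authors. No unit is stated, and this one rests on the range of the values and on Cufflinks being named. TopHat, Cufflinks and the TAIR10 genome are named per the submitters' processing notes, with no version of either tool. No count, replicate value or error accompanies the values used here, and low values fell within 0.15 of whole steps for only 70.3% (wild type) and 65.9% (skip) of values, against 30% by chance, so whole reads were not recovered and no count test was run.

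Log2 ratios of FPKM + 1 (pseudocount 1) were formed within a table, since the tables were scaled separately by a median factor of 1.10. Members, lists and motifs were chosen with earlier results of these data known. The annotation patterns for MATE carriers, cysteine-rich kinases and histones were narrowed after their members had been seen, and 9 lists, the wider promoter window and the exon classes within length were added after the values had been seen. Named genes were the 15 largest ratios and the 8 most abundant called genes per direction, the 6 largest changes of each list, SKIP, reference genes, runs and genes at 0. Genes of the 9 added lists, other list members given as contrast, MIR398b and genes below 5 FPKM were named outside that rule, after their values had been seen. Shared sequence is the percentage of a transcript's 50-mers found in another gene's longest transcript on either strand, and overlapping loci count. RefSeq annotation of TAIR10.1 matched 32810 of 33557 identifiers. Python 3.11.15, numpy 2.4.6, pandas 2.3.3, pyfaidx 0.9.0.4 and matplotlib 3.10.9 were used, and the shared-sequence search was checked on simulated data.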

Additional observations from a re-analysis of the deposited data

How the results depend on the processing

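Calls at 2-fold were 321 higher and 690 lower. They became 397 and 872 with a pseudocount of 0.1, 403 and 872 with none, 431 and 872 from 1 FPKM or with no filter, 249 and 513 from 10 FPKM, 378 and 597 with the values centred on the median nuclear gene, 289 and 778 with the columns rescaled to the same nuclear sum, and 316 and 670 without short, ribosomal and unmatched genes. At 4-fold, 55 were higher and 67 lower. The median log2 ratio of -0.08 became -0.0858 with a pseudocount of 0.1, -0.0859 with none, 0 with no filter, where most genes are near 0 in both columns, -0.0171 when centred and -0.13 when rescaled. Of 3385 values of 383 named genes under 9 alternatives, 3215 kept their side of the rule, 0 reversed, 139 were no longer past it and 31 were newly past it. No paired analysis was possible because each column merges 2 replicates, and for the same reason no replicate could be left out. Depth limits genes near 5 FPKM and short transcripts most.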

Other observations

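Below 5 FPKM the largest ratios, described here as values, include further genes of groups already named. NDB3, an alternative NADH dehydrogenase of mitochondria, stood at 0.203 FPKM in wild type and 3.94 in skip, a log2 ratio of 2.04. TIM17-1, a subunit of the mitochondrial import channel, had a ratio of 1.74 with 4.72 FPKM in skip, and HSP23.6-MITO, a small heat shock protein of mitochondria, had 1.77 with 3.90. AOX1C, a further alternative oxidase, had 1.17 with 1.67 FPKM in skip. FT, the mobile flowering signal, had 1.77 with 4.36 FPKM in skip, while MAF5 and FLC, repressors of flowering, had -1.83 and -1.11. PR1, a salicylate marker, had 2.03 with 4.67 FPKM in skip. DDF2, the close relative of DDF1, had -1.96. Among the 4775 nuclear genes whose higher value lay between 1 and 5 FPKM, 110 were at least 2-fold higher and 182 lower. At such levels a value rests on few fragments.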
